A study of Mus musculus with 6 samples.

Results

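Imprinted genes are expressed mainly from the copy inherited from a single parent, and this report describes how 37 mouse genes of that kind read on arrays of C2C12 myoblasts grown with or without 5-azacytidine. The genes were listed by name from the known imprinted clusters of the mouse, at a time when earlier results of these data were known. Their measurements were the probe sets whose only gene symbol, in the array's annotation, was one of the listed names. This gave 83 probe sets of 45101 on the array and measured 33 of the 37 genes. All 37 listed genes together lie in 17 clusters or single loci. No probe set carried H19, Rtl1, Zrsr1 or Slc22a3 as its only symbol. For each measured gene the brightest of its probe sets stood for it.

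C2C12 is an established mouse myoblast line, so each group is a single line in culture. Cells were seeded at 1500 per cm2, grown for a day, and then kept in the same serum-containing medium for 3 days either untreated (3 arrays) or with 10 µM 5-azacytidine (3 arrays, called 5AC here). The labels do not say whether the 3 arrays of a group came from separate cultures, so the p-values measure only how these samples varied, and that variation may be technical. RNA was total RNA, hybridised to a single-colour Affymetrix array, and the deposited intensities have no unit. The array reads the RNA of both parental copies together and cannot say which allele produced it.

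An imprint is a difference in DNA methylation that is laid down in the egg or the sperm and kept through cell division. It sits at an imprinting control region, which governs several neighbouring genes at once, some expressed from the paternal and some from the maternal copy. Dnmt1, brought to replicating DNA by Uhrf1, copies methylation onto the new strand, and Zfp57 with Trim28 protects imprinted regions. 5-Azacytidine resembles cytidine; once incorporated into replicating DNA it traps the methyltransferases, so that dividing cells lose DNA methylation. DNA methylation itself was not measured here.

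The arrays were alike in brightness, with median intensities of 20.4 to 21.0, and Pearson's r of log2 intensities across probe sets ranged from 0.965 to 0.971 for arrays of 1 group and from 0.949 to 0.954 across groups. The myoblast label was borne out by its markers: all 7 read above the median probe set, and their summed intensity was 5989 to 6275 untreated and 4470 to 4601 with 5AC. Over all arrays the summed intensities of other lineages' markers were 68.6 to 95.7 for 7 measured trophoblast genes, 34.0 to 47.6 for 5 endothelial genes, 135 to 161 for 6 macrophage and leukocyte genes and 103 to 186 for 5 adipocyte genes. The 10 neural markers summed to more, 543 to 583 untreated and 280.1 to 313 with 5AC, and Tubb3 alone averaged 456 and 195 of that.

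Sequences just upstream of the start site are shown for Ndn, Magel2, Mkrn3 and Peg12, paternally expressed genes of the Prader-Willi cluster on chromosome 7, because neighbours under a shared control region are set side by side in the results, and for Peg3, which fell on 3 probe sets. Each is 250 bases of RefSeq's GRCm38.p6 assembly, written 5′ to 3′ on the gene's strand, ending at the base before the annotated start. Capitals mark CG dinucleotides, the motif counted, which reads the same on both strands. The windows are chr7:62348027-62348276 on the plus strand for Ndn, chr7:62376729-62376978 on the plus strand for Magel2, chr7:62420154-62420403 on the minus strand for Mkrn3, chr7:62464511-62464760 on the minus strand for Peg12 and chr7:6730420-6730669 on the minus strand for Peg3.
Ndn: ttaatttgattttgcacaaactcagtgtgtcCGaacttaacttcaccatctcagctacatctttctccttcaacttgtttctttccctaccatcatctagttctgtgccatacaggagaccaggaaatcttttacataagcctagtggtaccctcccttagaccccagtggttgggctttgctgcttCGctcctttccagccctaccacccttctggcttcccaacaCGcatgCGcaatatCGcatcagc
Magel2: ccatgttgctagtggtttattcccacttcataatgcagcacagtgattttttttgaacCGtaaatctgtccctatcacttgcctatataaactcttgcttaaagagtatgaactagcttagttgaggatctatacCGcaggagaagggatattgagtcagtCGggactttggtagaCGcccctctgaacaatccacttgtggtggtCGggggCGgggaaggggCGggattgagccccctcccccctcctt
Mkrn3: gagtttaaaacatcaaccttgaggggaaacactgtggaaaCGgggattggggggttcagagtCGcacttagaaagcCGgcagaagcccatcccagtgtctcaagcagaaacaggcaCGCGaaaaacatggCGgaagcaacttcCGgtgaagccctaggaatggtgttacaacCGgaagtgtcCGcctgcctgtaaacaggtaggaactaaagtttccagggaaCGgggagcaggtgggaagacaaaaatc
Peg12: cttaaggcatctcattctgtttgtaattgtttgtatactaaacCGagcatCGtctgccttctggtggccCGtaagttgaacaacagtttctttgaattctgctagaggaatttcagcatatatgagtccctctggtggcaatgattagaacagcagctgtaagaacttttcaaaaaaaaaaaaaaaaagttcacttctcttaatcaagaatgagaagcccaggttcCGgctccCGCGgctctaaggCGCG
Peg3: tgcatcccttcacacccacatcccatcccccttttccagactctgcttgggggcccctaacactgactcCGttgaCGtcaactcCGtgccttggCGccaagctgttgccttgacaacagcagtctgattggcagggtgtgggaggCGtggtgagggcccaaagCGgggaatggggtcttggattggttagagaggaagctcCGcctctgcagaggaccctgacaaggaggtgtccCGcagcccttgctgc
The Ndn window held 5 CG dinucleotides, and 55.6% of all 32851 windows of that length held at least as many. Magel2 had 7 (46.3% of windows), Mkrn3 had 10 (37.8%), and Peg12 and Peg3 had 8 each (43.0%). The fifth gene of that cluster, Snrpn, whose windows are not printed, had 4 windows with 2 to 4 CG dinucleotides each. The median over all windows was 6. Over the 47 windows of the 31 listed genes that had one, the median was 8 and the range 0 to 40. The Peg3 window overlaps that of its divergent neighbour Usp29, chr7:6730333-6730582 on the plus strand, which held 14.

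Of the 33 measured imprinted genes, 5 were higher with 5AC, 3 were lower and 25 did not pass the threshold, an adjusted p under 0.05 from limma with Benjamini-Hochberg adjustment over 18193 genes. The genes that rose were Ndn, Mkrn3, Impact, Nap1l5 and Slc38a4, and those that fell were Peg3, Sgce and Cd81. The share called was 24.2%, beside 29.4% of all genes. The share higher was 15.2%, beside 15.6% of all genes, and the share lower was 9.09%, beside 13.8% of all genes. Without the first 5AC array the count over all genes was 1853 higher in place of 2836, and the imprinted count stayed at 5. The median log2 change was 0.096 over the measured imprinted genes and 0.012 over all genes. So, with bright and dim genes pooled, the shares of imprinted genes called were close to or under those of all genes, and the calls went both ways.

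Calls were more frequent among bright genes than among dim ones. Of 16 imprinted genes above the median probe-set intensity of 20.8, 2 rose and 3 fell, which is 31.2% called beside 43.0% of all genes that bright (22.5% higher and 20.6% lower). Of the 17 dimmer genes, 3 rose and 0 fell, with 0 lower at an unadjusted limma p under 0.05 too, which is 17.6% called beside 7.04% of all genes that dim (4.29% higher and 2.75% lower). Log2 changes were taken after adding 1 to the intensity, and a dim gene's change shrinks when a larger number is added. With 16 added, the median over the measured imprinted genes was -0.0065, and 4 rose and 3 fell.

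All 5 genes that rose are paternally expressed. The counts by allele stand beside the same shares over all genes, 15.6% higher and 13.8% lower. Among 18 measured paternally expressed genes, 5 rose, 2 fell and 11 did not pass, with a median log2 change of 0.29 (0.044 with 16 added). Among 14 maternally expressed genes 0 rose, also at an unadjusted limma p under 0.05, while 1 fell and 13 did not pass, with a median of -0.14 (-0.043 with 16 added). The difference between the paternal and maternal groups was not tested. The zero depends on which probe set stands for a gene, since a second probe set of each of the maternally expressed genes Grb10 and Cobl rose, as described further on. The listed maternally expressed gene H19 is not counted, because its probe set also carries Mir675. That probe set rose and was assigned to neither gene. Outside the list, the maternally expressed Igf2r rose, as did the paternally expressed Igf2. Of 9 measured genes whose imprinting is limited to certain tissues, 0 rose, 1 fell (Cd81) and 8 did not pass. All of these but Inpp5f are maternally expressed. Below the median probe-set intensity lay 8 of the 18 paternal and 9 of the 14 maternal genes. The part of limited imprinting or of brightness in the counts by allele was not tested.

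**Figure D1:**
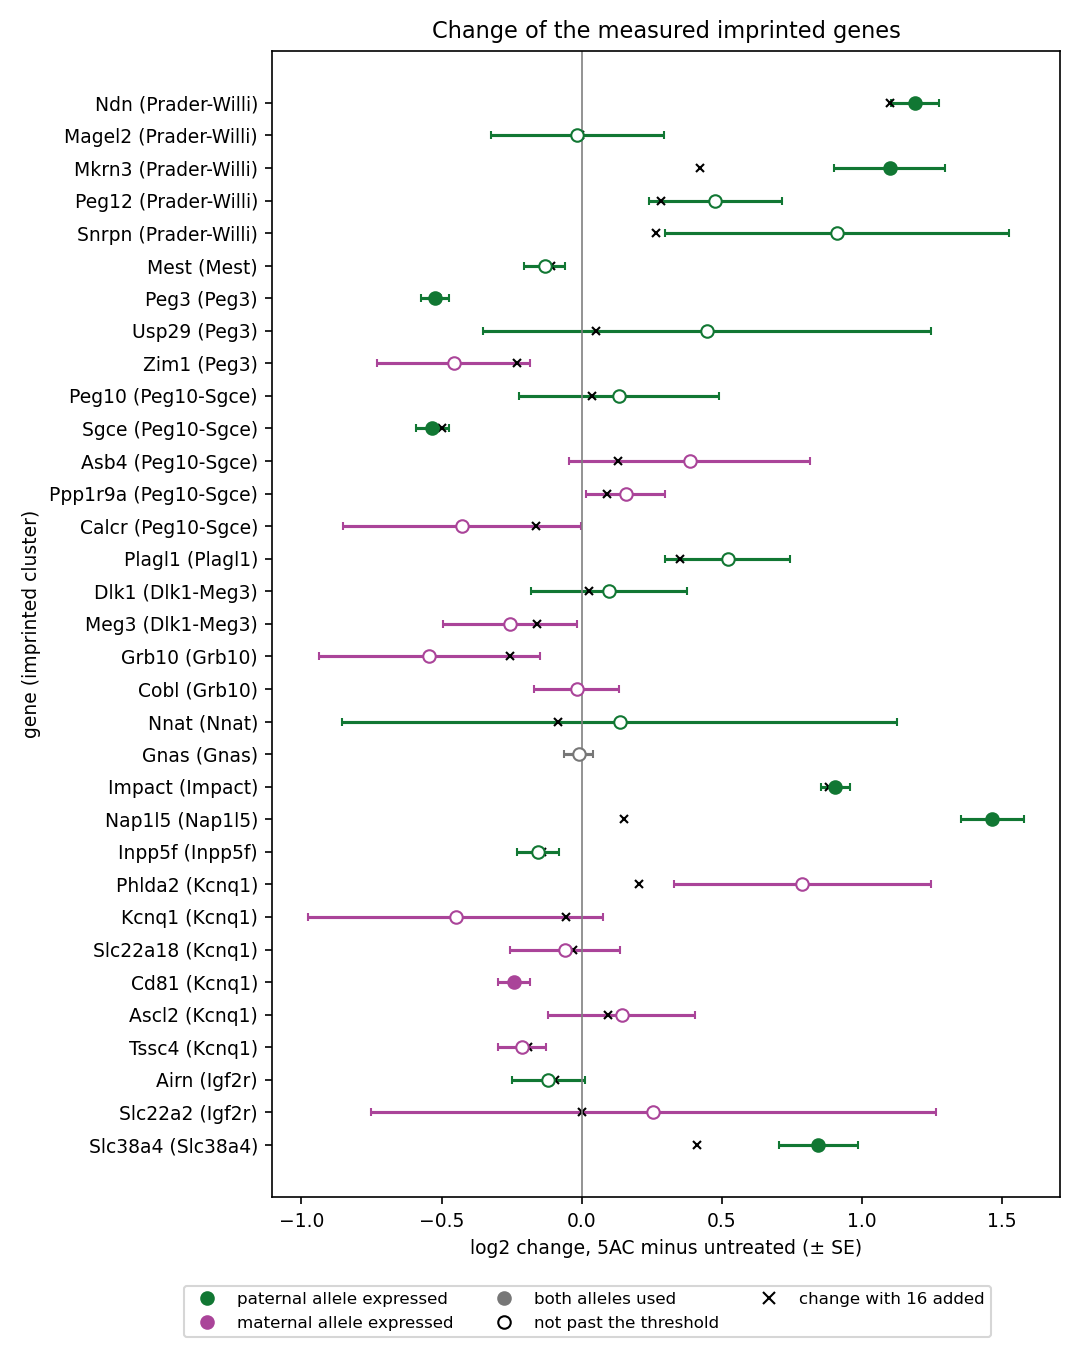
Log2 change (5AC minus untreated, 3 arrays a group) of the 33 measured imprinted genes on the horizontal axis, with its standard error as the bar and each gene's cluster in brackets. Filled points passed the threshold and open points did not, green marks paternal, purple maternal and grey complex expression, and crosses show the change with 16 added. The 5 filled points on the right, from 0.84 to 1.46, are all green, and the crosses of Mkrn3, Nap1l5 and Slc38a4 lie far closer to 0 than their points.

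The Prader-Willi cluster held 2 of the 5 genes that rose, Ndn and Mkrn3. Its genes are silenced on the maternal copy and are best known from neurons, but Ndn also acts in muscle. Ndn encodes necdin, a MAGE-family protein that restrains growth and favours differentiation of myoblasts and neurons. Its intensity was 132, 118 and 119 on the untreated arrays and 260.3, 303 and 282 with 5AC. Every 5AC array was above every untreated one, and the ratio of means was 2.29. This is a log2 change of 1.19 ± 0.08 (SE, n = 3 a group), with a limma adjusted p of 0.00102. Of the 8 Ndn probe sets, 7 rose in the fit over probe sets, by 0.75 to 1.25 on the log2 scale, and the eighth, 1456575_at, read 8.85 or less on every array.

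Mkrn3, a RING finger protein that holds back the onset of puberty, also rose, from a far dimmer start. It read 5.51, 4.21 and 6.48 untreated and 15.8, 10.7 and 11.7 with 5AC. The groups did not overlap, but all 6 values lay below the median probe set. On the log2 scale the change was 1.10 ± 0.20 with a limma adjusted p of 0.0132, and it was 0.42 with 16 added (adjusted p 0.00933).

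The other genes of the cluster did not pass. Magel2, a MAGE-family partner of a ubiquitin ligase in endosomal sorting, averaged 30.6 in both groups. Peg12, a Frat-family regulator of GSK3 signalling, read 13.2, 19.9 and 19.4 untreated and 18.3, 29.2 and 27.0 with 5AC, and the groups overlapped. Snrpn, a spliceosomal protein gene, had a single probe set of its own, which read 1.35 to 9.97 untreated and 9.96 to 11.2 with 5AC. Its better-lit probe sets carry the symbol of Snurf as well and are given among the closing observations.

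Impact, Nap1l5 and Slc38a4 are single paternally expressed loci on chromosomes 18, 6 and 15. Impact, an inhibitor of the stress kinase GCN2, rose from a level well above the median probe set. Its intensity was 429, 419 and 415 untreated and 807, 794 and 768 with 5AC. The arrays within each group lay close together and the groups were far apart. The ratio of means was 1.88, and the log2 change was 0.91 ± 0.05 with a limma adjusted p of 0.000644. A second probe set, 1446750_at, rose by 0.67 ± 0.10 in the fit over probe sets (adjusted p 0.0121), from a mean of 48.6 to 77.6. The third, 1446751_s_at, averaged 11.9 and 6.76 and did not pass (adjusted p 0.276). Averaging all 3, the dim one included, gave a log2 change of 0.29 and no call (adjusted p 0.179).

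Slc38a4, a transporter of neutral amino acids, read 9.36, 9.84 and 9.28 untreated and 21.3, 18.2 and 14.6 with 5AC. The groups did not overlap, and only 1 of the 6 values exceeded the median probe set. Its log2 change was 0.84 ± 0.14 (limma adjusted p 0.0104), and 0.41 with 16 added (adjusted p 0.0087). Its other probe set, 1428111_at, averaged 4.26 and 7.32 with overlapping groups. That probe set did not pass in limma's fit over probe sets (adjusted p 0.274). Nap1l5, a member of the nucleosome assembly protein family, read -3.95, -0.359 and -2.14 untreated and 1.48, 2.24 and 1.62 with 5AC. The 3 untreated values were below 0 and were set to 0 before the logarithm, and the 5AC values lay far below the median probe set. Its log2 change of 1.46 ± 0.11 (limma adjusted p 0.00117) fell to 0.15 with 16 added, where it did not pass (adjusted p 0.0567). With a variance trend on intensity it did not pass either (adjusted p 0.159).

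Among the imprinted genes that fell, Peg3 was paternally expressed and bright. Peg3 encodes a large zinc finger protein known from muscle progenitors. It read 1177, 1187 and 1226 untreated and 813, 853 and 830.5 with 5AC. No 5AC array came near the untreated range, and the ratio of means was 0.696. The log2 change was -0.52 ± 0.05 with a limma adjusted p of 0.00218. The 2 other probe sets that were well lit fell too in the fit over probe sets, 1417355_at by 0.52 and 1417356_at by 0.66, while the remaining 2 read 7.71 or less on every array. Averaging all 5 probe sets, dim ones included, gave -0.38 and no call (adjusted p 0.105).

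The neighbours of Peg3 stayed dim. Usp29, a deubiquitinating enzyme transcribed from the shared bidirectional start, read 1.12 to 14.3 untreated and 3.75 to 10.1 with 5AC. Zim1, a maternally expressed zinc finger gene, read 11.8 to 21.3 untreated and 9.91 to 15.8 with 5AC. In both genes the groups overlapped, and neither passed the threshold.

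Sgce, which encodes epsilon-sarcoglycan of the muscle membrane complex, fell by a like amount. It read 255, 275 and 254 untreated and 177, 179 and 185 with 5AC, with no overlap. On the log2 scale the change was -0.53 ± 0.06 (limma adjusted p 0.00300) and the ratio of means 0.690. Its other probe set, 1443518_at, averaged 6.48 and 2.99, and with that one standing for the gene, or the mean of both, the call was lost (adjusted p 0.228 and 0.126). Peg10, a retrotransposon-derived gene that shares the Sgce control region and is also paternally expressed, averaged 6.89 untreated and 7.42 with 5AC and did not pass. The maternally expressed genes of this cluster on chromosome 6, Asb4 (an ankyrin repeat protein), Ppp1r9a (the actin-binding scaffold neurabin) and Calcr (the calcitonin receptor), were all dim. None of their 8 probe sets passed in limma's fit over probe sets.

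**Figure D2:**
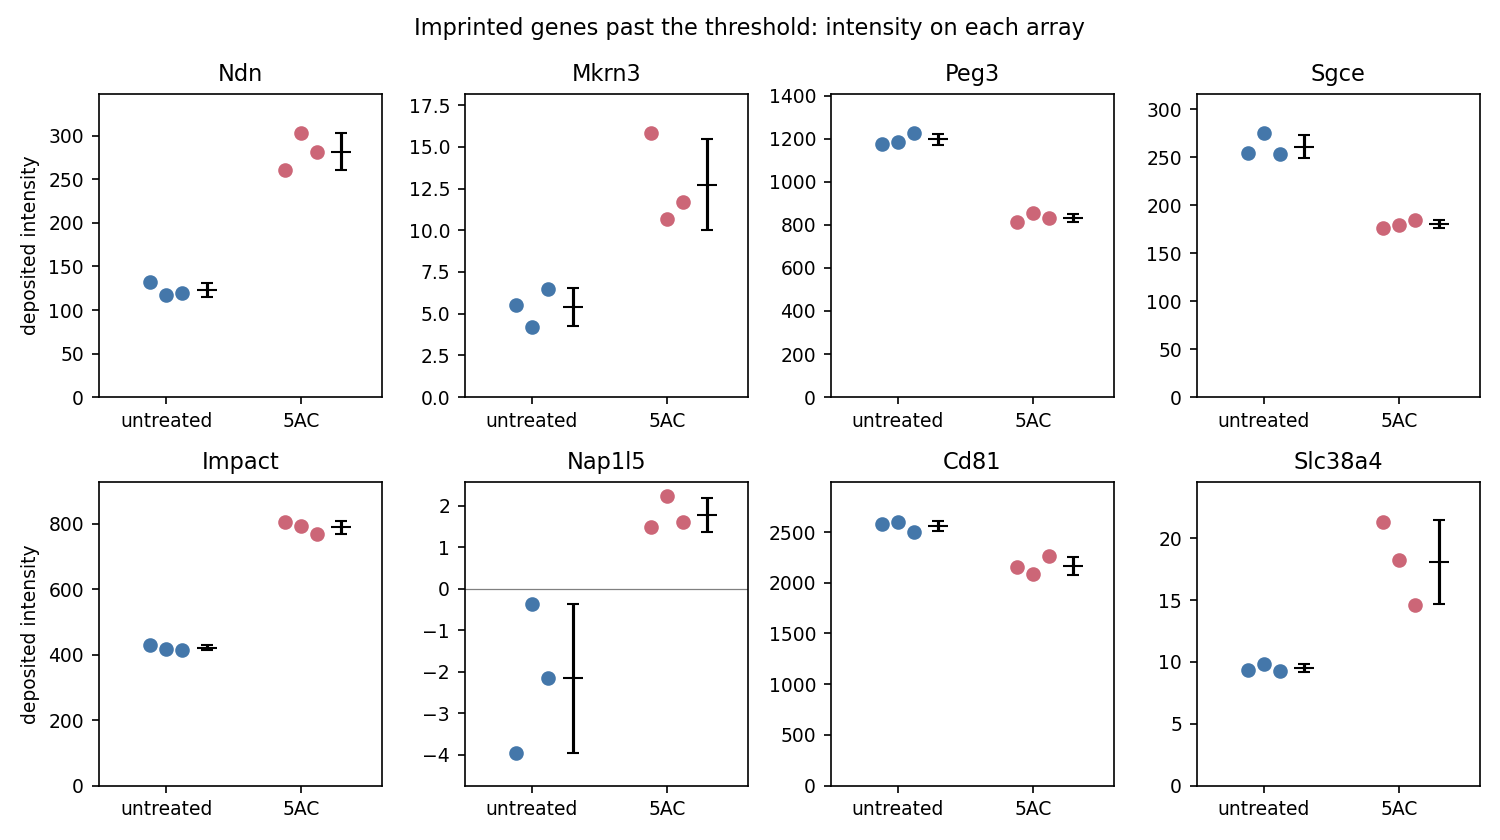
Deposited intensity on each array (vertical axis, linear, no unit) of the 8 imprinted genes past the threshold, untreated in blue and 5AC in red. The bar beside each group is its mean ± SD (n = 3), and the axis scale differs between genes. In every panel the 5AC arrays lie wholly above or wholly below the untreated ones, and Nap1l5 reads between -3.95 and 2.24 throughout.

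Among the measured maternally expressed genes of the 37, only Cd81 passed the threshold. Cd81 is a tetraspanin of the cell surface in the Kcnq1 cluster, with imprinting limited to certain tissues. Its intensity was 2575, 2603 and 2504 untreated and 2152, 2086 and 2263 with 5AC. The groups did not overlap, but the drop was small, with a ratio of means of 0.846 and a log2 change of -0.24 ± 0.06 (limma adjusted p 0.0299). The call was lost without any single untreated array, and without the first or the second 5AC array, with adjusted p from 0.0583 to 0.0952. It held without the third 5AC array (adjusted p 0.0438). In the fit over probe sets the adjusted p was 0.0789, and Cd81 is not counted among the called probe sets.

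Tssc4, a spliceosome-associated factor in the same cluster, averaged 148 ± 10.4 untreated and 128 ± 9.52 with 5AC (SD, n = 3). Its log2 change of -0.21 ± 0.09 did not pass (limma adjusted p 0.133). The cluster's other members were dim or overlapping. Phlda2, a pleckstrin homology protein that restrains placental growth, averaged 4.39 and 7.37. Ascl2, a basic helix-loop-helix factor of trophoblast, averaged 29.9 and 32.8, and the transporter-like Slc22a18 averaged 10.3 and 9.67. Kcnq1, a potassium channel subunit, read below 0 on 4 of the 6 arrays. None of these 4 genes passed the threshold.

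Several other single-locus imprinted genes gave no call. Gnas, the stimulatory G protein alpha subunit, averaged 3754 ± 129 untreated and 3725 ± 19.2 with 5AC. Its log2 change was -0.011 ± 0.052, with a 95% interval of -0.14 to 0.12 and a limma adjusted p of 0.909. The probe sets carry no transcript names, so its biallelic and allele-specific transcripts are not told apart. Inpp5f, a phosphoinositide phosphatase, averaged 159 ± 10.8 and 142 ± 7.30, a log2 change of -0.16 with an interval of -0.35 to 0.038 (adjusted p 0.202). Its probe set 1447757_x_at went the other way, averaging 61.4 and 73.4 (adjusted p 0.281 in limma's fit over probe sets). The dimmer 1442100_at averaged 16.3 and 13.5, and neither passed. Mest, a hydrolase of embryonic mesoderm, read 77.3, 73.5 and 74.2 untreated and 62.7, 72.5 and 70.2 with 5AC (log2 change -0.13, adjusted p 0.259). Here the groups stood just apart, but by less than the spread of the treated arrays.

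Plagl1, a zinc finger transcription factor, read 22.1, 24.0 and 38.4 untreated and 37.4, 43.3 and 38.5 with 5AC. The third untreated array was as high as the treated ones. The log2 change was 0.52 ± 0.22 and did not pass (limma adjusted p 0.154). Without the third untreated array it did, at 0.76 with an adjusted p of 0.0116, and it also passed with a variance trend on intensity (adjusted p 0.0479). Another of its probe sets, 1438588_at, averaged 16.3 and 12.8, in the opposite direction and not past the threshold. Nnat, a small membrane proteolipid, read -0.0430 to 11.8 untreated and 1.89 to 4.80 with 5AC, which gave no call.

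In the Dlk1-Meg3 cluster on chromosome 12 the protein-coding Dlk1, a transmembrane ligand with EGF repeats, averaged 9.91 untreated and 10.2 with 5AC. The non-coding RNA Meg3 had 11 probe sets, the most of any imprinted gene here. The brightest read 29.5, 33.8 and 30.0 untreated and 18.1, 34.2 and 27.7 with 5AC and did not pass (log2 change -0.26, or -0.45 to -0.011 on leaving out 1 array, limma adjusted p 0.495). A single one, 1429257_at, fell, from 32.8, 27.6 and 31.1 to 18.4, 17.4 and 18.4, a log2 change of -0.72 ± 0.09 (adjusted p 0.00810 in the fit over probe sets). The other 10 did not pass.

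Grb10 and Cobl lie side by side on chromosome 11, and for both the outcome differed between probe sets. Grb10, an adaptor that restrains insulin and IGF receptor signalling, read 17.8, 21.7 and 18.4 untreated and 22.1, 7.06 and 13.4 with 5AC on its brightest probe set, which did not pass (log2 change -0.54, or -0.91 to -0.15 on leaving out 1 array, limma adjusted p 0.380). On 1425458_a_at it read 7.01, 6.17 and 5.92 untreated and 22.6, 16.4 and 19.6 with 5AC. That probe set rose by 1.47 ± 0.14 on the log2 scale (adjusted p 0.00408 in the fit over probe sets), or 0.66 with 16 added. The third averaged 11.0 and 13.7 and did not pass.

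Cobl, the actin nucleator cordon-bleu, read 52.2, 54.7 and 73.2 untreated and 57.1, 64.4 and 54.8 with 5AC on its brightest probe set, with a log2 change of -0.018 (limma adjusted p 0.947). On 1442076_at it read 34.4, 32.0 and 20.6 untreated and 78.9, 74.2 and 89.6 with 5AC. There the log2 change was 1.48 ± 0.22 (adjusted p 0.0120 in the fit over probe sets), and 1.12 with 16 added. The mean of both probe sets passed as a gene value, at 0.73 (adjusted p 0.00280). Which transcripts the probe sets read is not given in the sources used here.

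**Figure D3:**
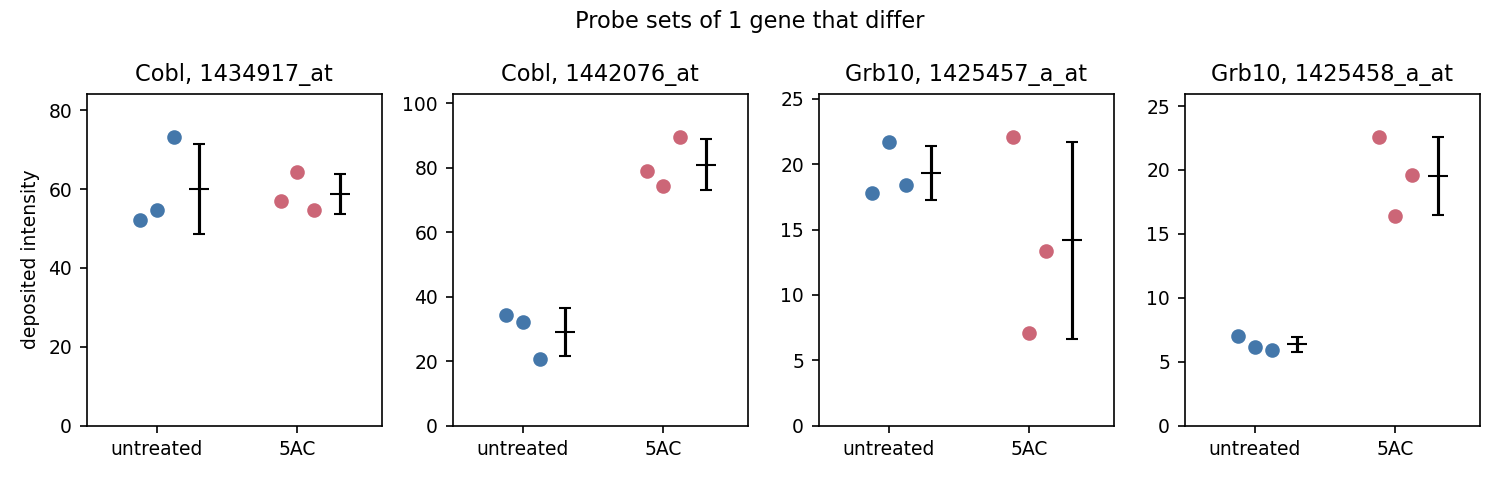
Deposited intensity on each array (vertical axis, linear, no unit) of a pair of probe sets for Cobl and a pair for Grb10, untreated in blue and 5AC in red, with the mean ± SD (n = 3) beside each group. For each gene the brightest probe set, on the left of its pair, overlaps between groups, and the other does not: 20.6 to 34.4 against 74.2 to 89.6 for Cobl, and 5.92 to 7.01 against 16.4 to 22.6 for Grb10.

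Across all 83 probe sets of the imprinted genes, 14 rose and 5 fell in limma's fit over 45037 probe sets. That is 16.9% higher, beside 8.15% of all probe sets, and 6.02% lower, beside 8.75%. Ndn alone gave 7 of the 14, and probe sets of 1 gene read transcripts of the same locus, so the 14 are not independent. Without the first 5AC array or without the second untreated array 9 rose, and without the second untreated or the second 5AC array 3 fell. The called probe sets came from 10 genes, and none of these genes had calls in both directions. Of the 83, 55 lay below the median probe-set intensity.

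**Figure D4:**
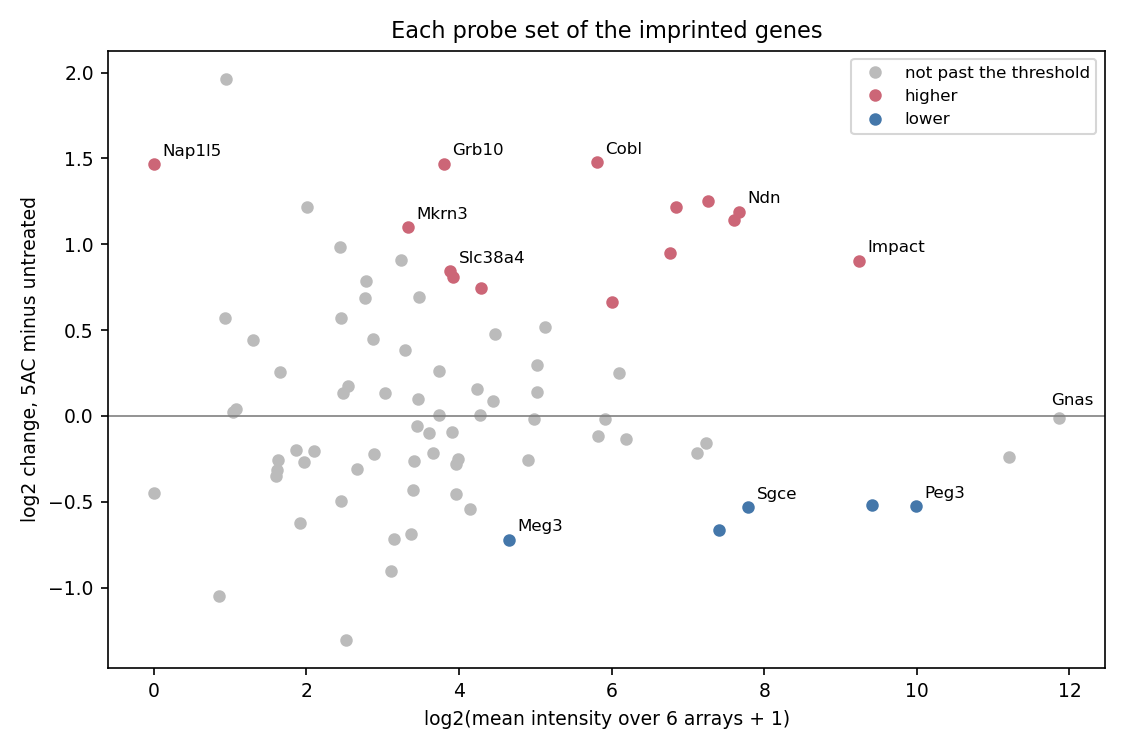
Log2 change (5AC minus untreated) of each of the 83 probe sets of imprinted genes on the vertical axis against log2 of its mean intensity plus 1 over the 6 arrays, with negative means set to 0. Red probe sets were higher, blue lower and grey not past the threshold in the fit over probe sets, and gene names mark the brightest called probe set of each gene and Gnas. Grey points spread more widely towards the dim side on the left, and the 7 red Ndn points lie between 0.75 and 1.25.

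At the Igf2r locus on chromosome 17, the paternally expressed antisense RNA Airn read 61.7, 64.5 and 47.4 untreated and 50.6, 53.7 and 54.0 with 5AC on its brightest probe set, which did not pass. None of its 5 probe sets passed in limma's fit over probe sets. Igf2r, the maternally expressed receptor that clears Igf2 and the transcript Airn overlaps, rose: 74.0, 75.0 and 81.1 untreated against 112, 96.3 and 126 with 5AC. The log2 change was 0.53 ± 0.11 (limma adjusted p 0.0229), and the call was lost without the first untreated, the second untreated or the first 5AC array (adjusted p 0.0744 to 0.0759). Since the strand that the probes read is not given in the sources used here, signal from Airn and Igf2r where they overlap was not told apart. Slc22a2, an organic cation transporter of the cluster, read -0.498 to 6.69 over all arrays.

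The growth factor gene Igf2, the paternally expressed partner of H19, rose by the most among the imprinted genes outside the 37. It read 12.6, 16.3 and 11.1 untreated and 111, 87.9 and 87.9 with 5AC, a ratio of means of 7.18 and a log2 change of 2.76 ± 0.17 (limma adjusted p 0.000794), or 1.93 with 16 added. Cdkn1c, a cell cycle inhibitor of the Kcnq1 cluster, averaged 3.93 and 3.86 and did not pass (adjusted p 0.878). Of 40 measured imprinted genes outside the 37, from a list of 47, 9 rose and 9 fell, with a median log2 change of 0.055, beside 15.6% higher and 13.8% lower over all genes. How widely these 40 genes are imprinted was not recorded, and imprinting in these cells was not measured. Igf2r and Igf2 are among the 9 that rose. The next largest increases were in Ano1, a calcium-activated chloride channel (12.2 to 41.4, log2 change 1.71 ± 0.22), Ddc, the aromatic amino acid decarboxylase next to Grb10 (15.7 to 47.6, 1.58 ± 0.22), and Tbc1d12 (37.5 to 110.1, 1.53 ± 0.11). The limma adjusted p of these 3 was 0.00475, 0.00600 and 0.000980. Averaging the probe sets of a gene removed the calls of Ddc and Tbc1d12 (adjusted p 0.530 and 0.331), and a probe set without a suffix letter removed that of Ano1 (0.237). Among those that fell, 4 did so by over 1 on the log2 scale, and these were chosen for naming after their values were seen. They were Ampd3, an AMP deaminase (349 to 137, -1.35 ± 0.08), the decoy receptor gene Tnfrsf23 (54.3 to 21.5, -1.28 ± 0.13), Dhcr7 of cholesterol synthesis (124 to 54.3, -1.17 ± 0.12) and Gatm of creatine synthesis (441 to 209, -1.07 ± 0.07), with limma adjusted p of 0.000644, 0.00248, 0.00254 and 0.000962.

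Neighbours of the clusters were also called in both directions. The nearest measured gene on each side of a cluster and in neither imprinted list, by the order of genes in RefSeq, gave 33 genes. Of these 6 rose, 6 fell and 21 did not pass, beside 29.4% of all genes called, with a median log2 change of 0.070. Igf2os, antisense to Igf2, is among the 21 and lies within the H19-Igf2 domain.

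Among the factors that copy and protect imprints, some were called in each direction. Of 16 measured, 2 rose, 4 fell and 10 did not pass, with a median log2 change of 0.029, beside 15.6% higher and 13.8% lower over all genes. Dnmt1, the maintenance methyltransferase, fell from 334 ± 14.1 to 245 ± 4.0 (SD, n = 3), a log2 change of -0.44 ± 0.06 (limma adjusted p 0.00449). Its recruiter Uhrf1 fell from 508 ± 9.48 to 329.6 ± 14.9 (-0.62 ± 0.06, adjusted p 0.00191). Trim28, the corepressor that protects imprinted regions, rose from 1349 ± 2.22 to 1668 ± 8.42 (0.31 ± 0.05, adjusted p 0.00731). Its partner Zfp57 averaged 7.12 and 9.86 and did not pass (adjusted p 0.718), and Ctcf, which binds the H19-Igf2 control region, averaged 399 and 411 and did not pass (adjusted p 0.669).

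The state of the culture changed along with the imprinted genes. Of 16 muscle differentiation markers, 13 rose and 2 fell, beside 15.6% higher and 13.8% lower over all genes. Their summed intensity went from 3114 to 3786 untreated to 7489 to 8206 with 5AC. The 2 that fell were Tnnt2 (815 to 542, log2 change -0.59 ± 0.06) and Cacng1 (377 to 271, -0.47 ± 0.07). Their limma adjusted p was 0.00268 and 0.00821. Myog rose from 397 to 1100.5 (log2 change 1.47 ± 0.11), embryonic myosin Myh3 from 51.6 to 302 (2.53 ± 0.14) and fast troponin Tnnt3 from 32.0 to 187 (2.54 ± 0.19), with limma adjusted p of 0.00104, 0.000644 and 0.00111. Against the same shares over all genes, 6 of the 7 myoblast markers fell and 0 rose, also at an unadjusted limma p under 0.05. Among these Myod1 went from 508 to 349 (-0.54 ± 0.08), the cadherin Cdh15 from 539 to 376 (-0.52 ± 0.06) and the integrin Itga7 from 583 to 252 (-1.20 ± 0.12), with adjusted p of 0.00587, 0.00305 and 0.00209. The part of this shift in the changes of Ndn, Peg3, Sgce and the other imprinted genes was not tested. In RNA from a whole culture, fewer cells of a type and less RNA per cell cannot be told apart.

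Among the markers of other lineages few were called, beside 29.4% of all genes, or 7.04% of those at or below the median intensity. Of 10 neural markers 1 fell, the tubulin Tubb3, from 456 to 195 (-1.22 ± 0.08, limma adjusted p 0.000790). In 5 measured adipocyte markers Pparg rose from 79.9 to 142 (0.83 ± 0.10, adjusted p 0.00390), and the sums were 103 to 122 and 170 to 186. Of 7 measured trophoblast markers, all below the median probe set, 1 passed: Eomes read 8.52, 4.12 and 10.6 untreated and 22.3, 17.1 and 29.2 with 5AC (adjusted p 0.0335). That call was lost without the first untreated array or without any single 5AC array (adjusted p 0.0588 to 0.0980). The trophoblast sums were 68.6 to 75.2 untreated and 88.8 to 95.7 with 5AC. None of 6 macrophage and leukocyte and 5 endothelial markers passed in limma, and 0 had an unadjusted p under 0.05. The part of these markers in the results for the imprinted genes was not tested.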

How the data were processed

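RNA from 3 untreated and 3 5AC-treated C2C12 samples was measured on single-colour Affymetrix mouse arrays. The authors deposited a table of linear intensities, 1 per probe set and array. The submitters' processing notes name GCOS 1.4 and R 2.4.1, with no role; how the background was treated and the arrays were scaled is not given in the sources used here. From 2.42% to 2.59% of an array's values were below 0.

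Values below 0 were set to 0, 1 was added, and log2 values were fitted with limma 3.58.1 in R 4.3.3 (lmFit and eBayes, 3 against 3 arrays, no normalization added). Genes came from GEO's platform annotation: 34945 probe sets had 1 symbol, 932 several and 9160 none, and 64 controls were left out. Each gene was represented by its brightest probe set. P-values were adjusted over 18193 genes, or over 45037 probe sets in the fit over probe sets, with a threshold of 0.05. In data simulated over 18193 genes, true log2 changes of 0.5, 1 and 2 were planted in 68, 66 and 66 genes. Of these, 30.9%, 50.0% and 71.2% were recovered, with 3 false calls of 104. That is a far smaller share of changed genes than the 29.4% called here. The adjusted p depends on that share, so these recovery rates do not carry over to the comparison itself. The number of arrays limits the precision. Arrays with the same replicate number did not deviate together (r of -0.059, 0.031 and 0.012 over the probe sets above the median intensity), so no block was used.

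The imprinted genes and the other lists were chosen with earlier results of these data known. Genes named are every listed imprinted gene, Igf2, Igf2r, Cdkn1c, 5 imprint maintenance factors and up to 3 of each marker list. The other imprinted genes with the largest changes are named too, with 4 that fell, chosen after their values were seen. So are the 2 muscle differentiation markers that fell. The alternatives tried were a replicate block, 16 added, median centring, quantile normalization, only probe sets above the median intensity, another probe set for a gene or the mean of all, a variance trend with robust moderation, each array left out, and, chosen after seeing the data, only probe sets above 0 on all arrays. Promoter windows came from RefSeq, GRCm38.p6, for 31 of 37 genes.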

Additional observations from a re-analysis of the deposited data

Results flagged for a closer look

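A probe set outside the comparisons carries the symbols of both Mir675 and H19 and was assigned to neither gene. It read 3057, 3383 and 3259 on the untreated arrays and 5083, 5152 and 5214 with 5AC, a mean of 3233 against 5149.8. The log2 change was 0.67 ± 0.07 (limma adjusted p 0.00541 over all probe sets). It stood out because it is bright and lies above the level of every untreated array. H19 is the precursor of the microRNA encoded by Mir675, and the annotation does not separate them.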

How the results depend on the processing

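Of 592 values of 40 named genes under the alternatives, 552 kept their direction and their side of the threshold, 25 lost the call, 2 gained it and 13 changed sign. A value that changed sign was counted only as such, also where it passed the threshold, as Cobl did with the mean of its probe sets. None of the 8 called imprinted genes changed sign under the alternatives run. Scaling moved little: quantile normalization and median centring left 5 imprinted genes higher and 3 lower, and put the median log2 change of all genes at 0.016 and -0.0078. With only probe sets above the median intensity, 2 imprinted genes and 8 of their probe sets were higher, since fewer were tested. Averaging a gene's probe sets left 0 imprinted genes lower in limma, with 3 at an unadjusted p under 0.05, and 5 of the other imprinted genes higher and 5 lower. The replicate numbers mark no known pairing. With the replicate number as a block, 1672 genes were higher and 1565 lower. Of the imprinted genes, 6 were higher and 2 lower. In the fit over probe sets, 0 probe sets of imprinted genes passed in either direction, with 17 higher and 5 lower at an unadjusted limma p under 0.05. The same block left 0 of all 45037 probe sets called, and it removed the calls of Cd81 (adjusted p 0.115) and Trim28 (0.0566). Leaving out 1 array gave 1853 to 2489 genes higher and 1836 to 2066 lower, 5 to 6 imprinted genes higher and 2 to 3 lower, 6 to 7 other imprinted genes higher and 7 to 8 lower, and 9 to 13 probe sets of imprinted genes higher and 3 to 6 lower. Signs turned only in genes that had no call before the alternatives were applied. With a probe set without a suffix letter, Gnas was 0.086 and Plagl1 -0.28. With the mean of all probe sets, Plagl1 was -0.0047, Grb10 0.40, Cobl 0.73 and Ctcf -0.10. Leaving out 1 array gave -0.039 to 0.0086 for Gnas, -0.11 to 0.13 for Cobl, -0.48 to 0.54 for Cdkn1c and -0.16 to 0.69 for Zfp57. Except where fewer features were tested, the cause was not tested. Of the 25 imprinted genes without a call, 14 read 22.4 or less on every array, which limits what could be called there.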

Other observations

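In all, 6 probe sets carry the symbols of both Snurf and Snrpn, which share a transcript, and none passed in limma's fit over probe sets. Their log2 changes ran from -0.62 to 0.50, and the lowest adjusted p was 0.119. The brightest read 423, 406 and 335 untreated and 266, 337 and 401 with 5AC, so its groups overlapped. The probe set annotated to both Airn and Igf2r averaged 16.2 untreated and 19.5 with 5AC and did not pass (log2 change 0.28, adjusted p 0.453).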
